A study of Mus musculus with 6 samples.

Results

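The semaphorins, plexins and neuropilins are a family of guidance ligands and receptors, described here in double-positive (DP) thymocytes, the thymic T cell precursors positive for CD4 as well as CD8. The genes were chosen by symbol, from probe sets with 1 gene symbol: Sema3 to Sema7 semaphorins, A, B, C and D plexins, Nrp1 and Nrp2. Where a gene had more than 1 probe set, the brightest was selected by its mean signal over all 6 arrays, which counts both genotypes alike. That gave 31 genes on 33 probe sets, among 19938 genes on the array: 20 semaphorins, 9 plexins and 2 neuropilins. The symbol rule used no difference between the genotypes. The family was, however, taken up with earlier results of these data known, the fall of Nrp1 among them. The values of Nrp1 are therefore a description: no p is given for it, and its place among the genes counted below is support for nothing. The gene lists read beside the family were also chosen with earlier results known. The p-values given for other genes are thus not fresh tests. The groups were wild-type (WT) DP thymocytes, 3 arrays, and Hdac3 knockout (KO) DP thymocytes, 3 arrays, all from untreated C57BL/6 mice aged 3 weeks. The design text names the knockout LCK:Hdac3 KO, and neither the recombinase nor the deleted stretch of Hdac3, which encodes a histone deacetylase, is stated in the sources used here. Total RNA of 2 WT and 2 KO mice was pooled, 3 replicates were counted as biological, and the text does not tie mice to arrays. The p-values therefore measure the spread between these arrays, which may be technical in part.

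Semaphorins are secreted, membrane-spanning or lipid-anchored ligands that share the sema domain. Plexins are their main receptors and carry a GTPase-activating domain that acts on small G proteins of the Ras family and so on integrin adhesion and the cytoskeleton. Neuropilins bind secreted class 3 semaphorins together with A plexins, and also serve as coreceptors for vascular endothelial growth factor (VEGF). In the thymus this family is known for guiding thymocytes as they move between cortex and medulla, and Sema3e acting on Plxnd1 is the best known pair. Sema4d and Sema7a are also known as immune semaphorins, made by lymphocytes themselves.

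Values are the deposited log2 probe set signals, and differences are KO minus WT on that scale with their standard error (SE). A gene is said to be called, to rise or to fall where limma gave a Benjamini-Hochberg adjusted p under 0.05 over all 23410 probe sets that carry a gene. Signals of different probe sets are not compared, because probes differ in how strongly they bind. Hdac3 itself had 9.40, 9.42 and 9.44 on the WT arrays against 8.28, 8.32 and 8.32 on the KO arrays, a KO signal at 46.2% of WT. None of 7 measured DP markers was called. Interquartile ranges of signal were 3.29 to 3.49 on the WT arrays against 3.06 to 3.25 on the KO arrays. With this narrower spread, the median difference of all probe sets was 0.16 in the bin of probe sets around a signal of 5.48 and -0.17 in that around 7.78, of 10 bins of equal size. On KO array 2 the mean of 10 neutrophil markers was 6.16, against 4.84 on both other KO arrays and 4.63 to 4.76 on the WT arrays.

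Of the 31 genes, Nrp1, Sema7a and Plxnc1 were lower in KO and Sema4d was higher. The other 27 did not pass. Over all genes 4.25% were called lower and 1.84% higher, against 9.68% and 3.23% of this family, shares that rest on 3 genes and 1 gene, and nothing is read from them because the family was taken up with results known. With 1 array left out the family had 1 to 3 genes called lower and 0 higher. The 1 came without WT array 1, where neither Sema7a nor Plxnc1 was called. Over all probe sets 1355 were called in the reported fit. With 1 array left out 474 to 826 were, except 1946 without WT array 3, so calls were mostly lost across the whole array. The differences of the 31 genes ran from -2.10 to 0.36 with SEs of 0.09 to 0.20. The median difference was 0.07, beside 0.02 over all genes, and 21 of the 31 differences were positive, beside 54.0% of all genes. That lean depended on the scaling: 16 were positive after quantile normalization and 12 after median centring, with medians of 0.00 and -0.03. KO arrays lay wholly below WT arrays for 3 of the 31 genes, the same Nrp1, Sema7a and Plxnc1, where 16.9% of all genes did so. They lay wholly above for 4, Sema4d, Sema4b, Sema5b and Sema6a, beside 14.1% of all genes.

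**Figure D1:**
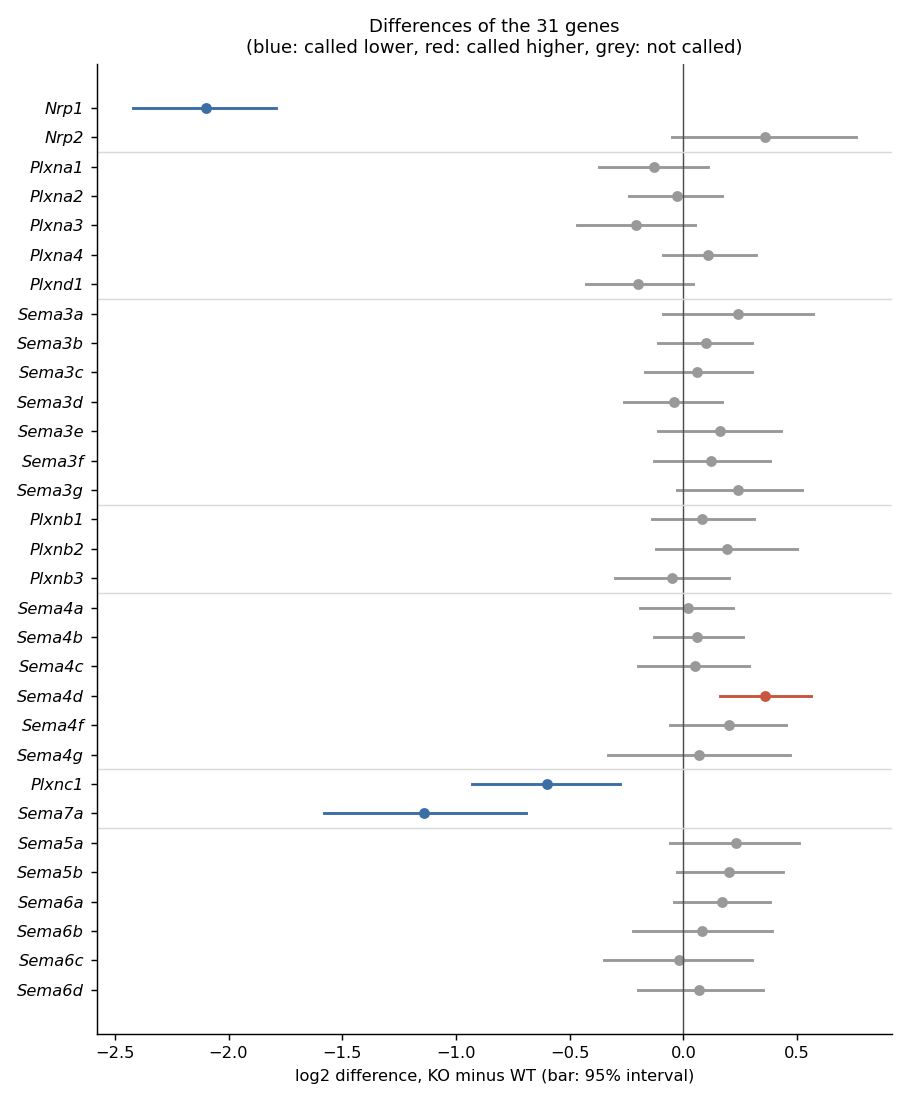
Log2 difference, KO minus WT, for each of the 31 genes (points) with its 95% interval (bars; for Nrp1 a description), grouped by neuropilins, A and D plexins, class 3 semaphorins, B plexins, class 4 semaphorins, Plxnc1 with Sema7a, and class 5 and 6 semaphorins. Nrp1 lies at -2.10, Sema7a at -1.14 and Plxnc1 at -0.60, Sema4d lies at 0.36, and the intervals of the other 27 genes span 0.

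Nrp1, the neuropilin that pairs with A plexins for Sema3a and with VEGF receptors, had the largest difference of the family. Its signal was 8.38, 8.26 and 7.99 on the WT arrays against 6.32, 5.88 and 6.12 on the KO arrays. The lowest WT array lay well above the highest KO array, and the spread within each genotype was small beside the gap. The means were 8.21 ± 0.20 (SD, n = 3) and 6.10 ± 0.22 (SD, n = 3), a difference of -2.10 (SE 0.14), which leaves the KO signal at 23.3% of WT. Leaving out each array in turn moved it between -2.22 and -1.99. The median difference of probe sets in the same bin of signal was -0.14. In bulk RNA such as this, fewer cells that express a gene and less RNA per cell cannot be told apart.

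Nrp2, the other neuropilin, which prefers Sema3f and VEGF-C, was not called. Its mean signal of 5.30 lay below the table's median of 5.59, so its probe set may be unable to show a fall. It had 5.27, 4.66 and 5.44 on the WT arrays against 5.45, 5.62 and 5.37 on the KO arrays. The groups overlapped, and WT array 2 lay lowest. Its difference of 0.36 (SE 0.18, 95% interval -0.05 to 0.76, limma adjusted p = 0.25) did not pass, and it came to 0.13 without WT array 2.

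Several other cell types of the thymus are known for Nrp1, so their markers were read on the same arrays. Of 9 endothelial markers, none was called, and the mean of the list was 4.96 to 5.09 on the WT arrays against 5.12 to 5.24 on the KO arrays. Cdh5, the endothelial cadherin, had means of 4.52 and 4.65. Of 7 markers of dendritic and plasmacytoid dendritic cells none was called either, with list means of 4.53 to 4.74 in WT and 4.73 to 4.76 in KO. Siglech, which defines plasmacytoid dendritic cells, had means of 4.83 and 4.91. The 6 markers of regulatory T cells, on which Nrp1 is a known surface protein, moved both ways. Ikzf2, the factor Helios, fell by 1.23 and Tnfrsf18, the receptor GITR, by 0.50, while Il2ra, the receptor chain CD25, rose by 2.28. Foxp3, the factor that defines these cells, had means of 5.12 in WT and 5.28 in KO and did not pass, and the list mean was 6.10 to 6.37 in WT and 6.25 to 6.46 in KO. The part of these cells in the Nrp1 values was not tested.

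**Figure D2:**
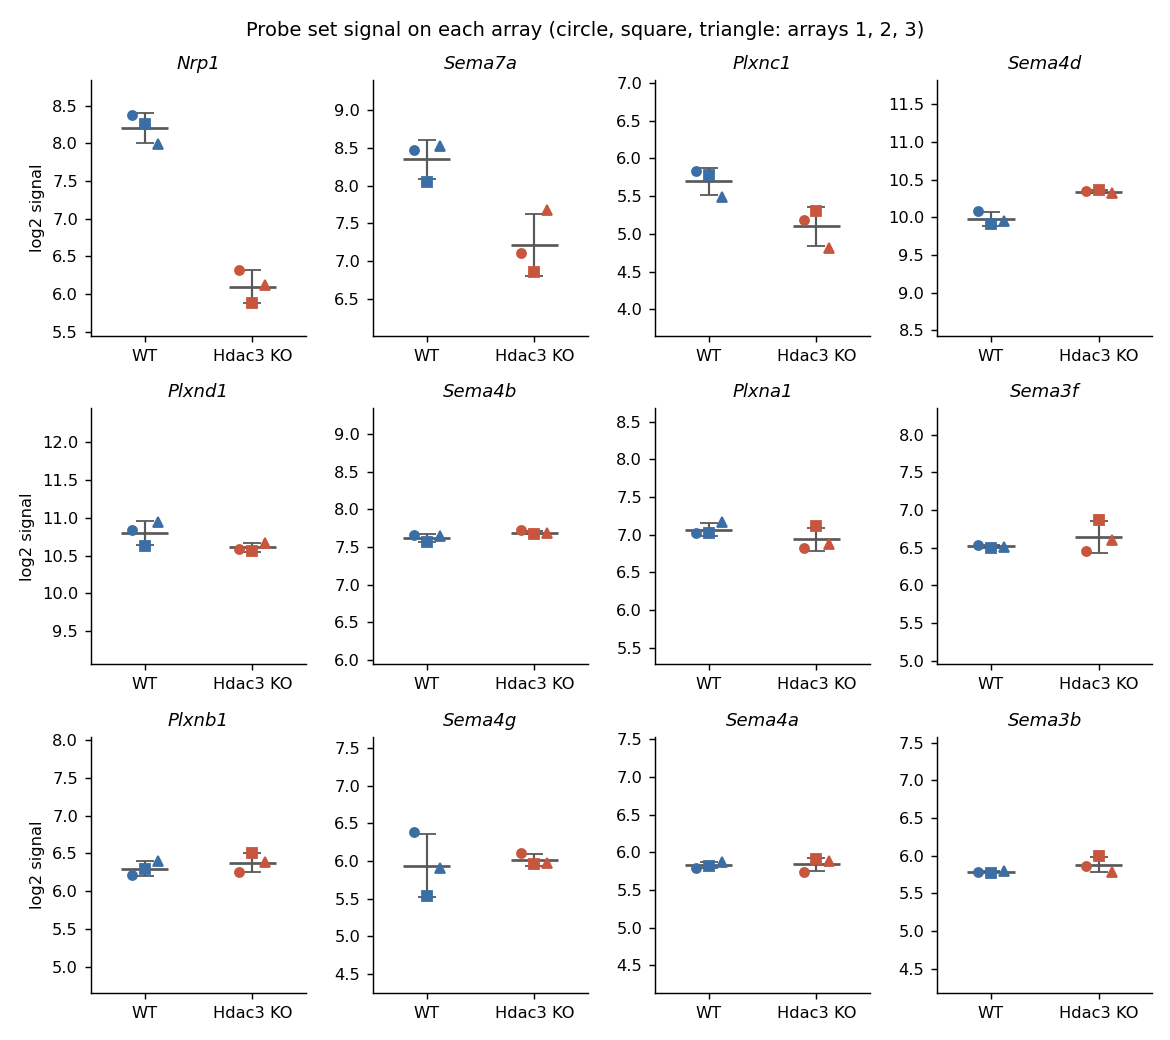
Log2 signal on each WT (blue) and KO (red) array, with mean (line) and SD (bar) of 3 arrays, for the 4 called genes in the top row and the 8 others with the highest mean signal; every panel spans the same range of log2 units. The 4 genes of the top row separate the genotypes, Nrp1 by the widest margin, while in the other panels the groups overlap or, for Sema4b, nearly touch (mean difference 0.06).

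Sema7a and its receptor Plxnc1 were both lower in KO. Sema7a is the one semaphorin held to the membrane by a lipid anchor, and it binds Plxnc1 and integrins with the beta-1 chain. Its signal was 8.47, 8.05 and 8.53 on the WT arrays against 7.11, 6.86 and 7.67 on the KO arrays. The groups did not overlap, but KO array 3 lay closer to WT than the other KO arrays did. The difference was -1.14 (SE 0.20, limma adjusted p = 0.014), a 2.20-fold fall from 8.35 ± 0.26 (SD, n = 3) to 7.21 ± 0.41 (SD, n = 3). Without WT array 1 the difference was -1.08 and the call was lost (limma adjusted p = 0.06). Probe sets in the same bin of signal leaned the same way, with a median difference of -0.17.

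Plxnc1, which encodes the sole C plexin, had 5.83, 5.78 and 5.49 on the WT arrays against 5.18, 5.30 and 4.81 on the KO arrays. WT array 3 came nearest to the KO arrays, with no overlap. The mean signal of Plxnc1, 5.40, lay below the table's median of 5.59, so it counts among the dim genes. The difference was -0.60 (SE 0.14, 95% interval -0.93 to -0.28, limma adjusted p = 0.043), a 1.52-fold fall. It went against the probe sets in the same bin of signal, whose median difference was 0.16. This call was marginal: of the 6 fits with 1 array left out it was kept only without WT array 3 (differences of -0.71 to -0.46, limma adjusted p up to 0.14), and it missed the threshold when all probe sets of the table were tested (limma adjusted p = 0.053).

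Itgb1, the beta-1 integrin chain and the other known receptor part for Sema7a, fell as well. It had 9.54, 9.52 and 9.55 on the WT arrays against 8.90, 8.76 and 8.94 on the KO arrays. Every KO array lay far below every WT array, beside a spread of a few hundredths among the WT arrays. The difference was -0.67 (SE 0.09, limma adjusted p = 0.0041), a 1.59-fold fall, and it stayed called with any 1 array left out. Itga1, the alpha chain of the integrin through which Sema7a is known to act, had means of 3.98 and 3.93 and did not pass (difference -0.05, 95% interval -0.29 to 0.19, limma adjusted p = 0.8).

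Plxnc1 and Sema7a are also expressed by myeloid cells, whose markers were read on the same arrays. None of 8 macrophage markers was called, with list means of 4.83 to 4.98 in WT and 4.90 to 5.27 in KO. Of 10 neutrophil markers Cebpe, a factor of granulocyte maturation, rose by 0.45 and 9 did not pass. KO array 2, where the neutrophil list was highest, had the highest KO signal of Plxnc1 and the lowest of Sema7a. Without that array the differences were -0.71 for Plxnc1 (limma adjusted p = 0.056) and -0.96 for Sema7a (limma adjusted p = 0.045). With quantile normalization as well they were -0.78 and -0.85, and neither was called (limma adjusted p = 0.059 and 0.098). Of 4 markers of mature single-positive thymocytes Il7r, the interleukin-7 receptor chain, fell by 1.19 and 3 did not pass. Those differed both ways, Ccr7 by 0.35, Klf2 by 0.20 and S1pr1 by -0.32. The list mean was 5.85 to 6.43 in WT and 5.84 to 6.00 in KO. The part of myeloid and mature single-positive cells in the result was not tested.

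The promoters of the 3 genes called lower are shown side by side. These genes were picked by that outcome, and whether their falls are linked was not tested. The windows are the 250 bases before the annotated start in RefSeq, mouse build GRCm38.p6, written 5′ to 3′ on the strand of the gene. Nrp1 lies at chr8:128358823-128359072 on the plus strand, Sema7a at chr9:57939862-57940111 on the plus strand and Plxnc1 at chr10:94944846-94945095 on the minus strand. Capitals mark matches on either strand to a RUNX core (TGTGGT), an E-box (CANNTG), a nuclear receptor site (AGGTCA) or an EGR motif (GCGNGGGCG).
Nrp1: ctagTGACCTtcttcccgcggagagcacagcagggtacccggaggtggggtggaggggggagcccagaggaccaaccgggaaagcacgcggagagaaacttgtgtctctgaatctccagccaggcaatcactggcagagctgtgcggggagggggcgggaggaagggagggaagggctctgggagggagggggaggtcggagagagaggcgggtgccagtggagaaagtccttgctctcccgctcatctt
Sema7a: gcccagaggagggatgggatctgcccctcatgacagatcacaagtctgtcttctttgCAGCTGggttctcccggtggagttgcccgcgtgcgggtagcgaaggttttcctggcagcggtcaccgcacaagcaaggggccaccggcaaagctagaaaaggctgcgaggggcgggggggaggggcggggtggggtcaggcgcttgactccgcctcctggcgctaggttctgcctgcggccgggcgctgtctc
Plxnc1: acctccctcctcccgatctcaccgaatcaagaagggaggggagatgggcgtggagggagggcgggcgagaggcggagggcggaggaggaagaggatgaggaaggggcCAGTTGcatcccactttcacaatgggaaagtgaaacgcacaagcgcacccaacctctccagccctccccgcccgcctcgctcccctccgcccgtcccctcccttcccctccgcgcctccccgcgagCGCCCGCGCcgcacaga

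The 3 windows had no marked motif in common. Nrp1 held 1 nuclear receptor site, which begins 246 bases before the start, Sema7a held 1 E-box and Plxnc1 held 1 E-box and 1 EGR motif, and none of them held a RUNX core. A GC box (GGGCGG), which can share letters with the EGR motif and is not capitalised, was found in all 3, 1 in Nrp1, 2 in Sema7a and 4 in Plxnc1. Among all 32851 windows of this length, 14.0% held the RUNX core, 66.2% an E-box, 14.0% the nuclear receptor site, 4.70% the EGR motif and 32.7% a GC box. An ATF4 motif (TGATGNAAT), held by 0.816% of all windows, was in none of the family's. RefSeq windows were matched for 26 of the 31 genes, 37 windows in all, since some genes have several starts. The family's windows were rich in CpG: the median G+C share was 64.0% and the median number of CpG pairs 13, beside 52.4% and 6 over all windows. GC boxes stood in 73.0% of them, E-boxes in 51.4%, nuclear receptor sites in 18.9%, EGR motifs and RUNX cores in 13.5% each. The windows of Nrp1, Sema7a and Plxnc1, with 64.4%, 66.4% and 68.8% G+C, were like the rest of the family in this. The 3 windows of Sema4d, which rose, had 52.0% to 55.2% G+C and 1 or 2 CpG pairs each. Some genes that were not called were low too, such as Sema3a with 40.8% and 2 CpG pairs and Sema4f with 46.0% and 4. These matches describe letters and not bound sites.

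Sema4d was the one gene of the family called higher. It encodes CD100, a membrane-spanning semaphorin of T cells that acts on Plxnb1 and, on other leukocytes, on Cd72. Its signal was 10.08, 9.91 and 9.95 on the WT arrays against 10.35, 10.36 and 10.32 on the KO arrays. The KO arrays lay close together, all above WT array 1, the highest of the WT arrays. The difference was 0.36 (SE 0.09, 95% interval 0.16 to 0.56, limma adjusted p = 0.049), a 1.28-fold rise, and it kept its sign in every alternative run. The call itself was marginal and was lost with any 1 array left out (differences of 0.32 to 0.41, limma adjusted p of 0.066 to 0.15). A further Sema4d probe set had 6.35, 6.27 and 6.37 on the WT arrays against 6.50, 6.68 and 6.24 on the KO arrays. These overlapped, and the difference of 0.14 (95% interval -0.12 to 0.41, limma adjusted p = 0.47) did not pass. With both probe sets averaged, Sema4d differed by 0.25 and was not called (limma adjusted p = 0.15).

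The receptors of Sema4d did not pass. Plxnb1 had 6.21, 6.29 and 6.40 on the WT arrays against 6.26, 6.50 and 6.39 on the KO arrays, a difference of 0.08 (95% interval -0.14 to 0.31). Plxnb2, which also binds class 4 semaphorins, differed by 0.19 (95% interval -0.12 to 0.50) and Plxnb3, a receptor for Sema5a, by -0.05 (95% interval -0.30 to 0.20). Cd72, a B cell coreceptor, had means of 5.41 and 5.62 (difference 0.21, 95% interval -0.11 to 0.53). These intervals allow changes of up to 0.53 on the log2 scale, so they do not show that the receptors were the same in both genotypes.

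The other class 4 semaphorins had positive differences, of which none passed. Sema4b had 7.66, 7.56 and 7.65 on the WT arrays against 7.72, 7.67 and 7.68 on the KO arrays. Its groups did not overlap, but the gap was within the spread of the WT arrays, and the difference was 0.06 (95% interval -0.13 to 0.26). Sema4a, an activator of T cells that binds Plxnd1 and Timd2, had 5.79, 5.82 and 5.87 on the WT arrays against 5.74, 5.91 and 5.88 on the KO arrays, a difference of 0.02 (95% interval -0.19 to 0.22). Sema4g had the widest WT spread of the family, with 6.38, 5.54 and 5.91 on the WT arrays against 6.10, 5.96 and 5.97 on the KO arrays, and its difference of 0.07 had an interval of -0.33 to 0.47. Sema4c differed by 0.05 and Sema4f by 0.20. The signs of Sema4a, Sema4b, Sema4c and Sema4g turned after median centring, and those of Sema4a and Sema4c after quantile normalization too.

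Plxnd1, the receptor of Sema3e on thymocytes, did not pass. Its signal was 10.84, 10.63 and 10.95 on the WT arrays against 10.59, 10.56 and 10.67 on the KO arrays. WT array 2 lay between the KO arrays, so the groups overlapped. The difference was -0.20 (SE 0.11, 95% interval -0.43 to 0.04, limma adjusted p = 0.27), which does not allow a fall of the size seen for Nrp1 or Sema7a but does allow one to 74.0% of the WT signal. Sema3e, its ligand, which is made mainly by other thymic cells, had means of 4.49 ± 0.17 (SD, n = 3) and 4.65 ± 0.17 (SD, n = 3) and did not pass.

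The A plexins, which signal for neuropilins, did not pass either. Plxna1 had 7.02, 7.02 and 7.17 on the WT arrays against 6.83, 7.12 and 6.88 on the KO arrays, with a difference of -0.13 (95% interval -0.37 to 0.11). Plxna3 differed by -0.21 (95% interval -0.47 to 0.05), the lowest of the 27 genes not called, Plxna2 by -0.03 and Plxna4 by 0.11. None of their intervals reached below -0.47. For Plxna1, with a WT mean of 7.07, this does not allow a fall in signal of the size seen for Nrp1. Plxna2, Plxna3 and Plxna4 lay below the table's median signal of 5.59. With no known background level, their probe sets may be unable to show such a fall.

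None of the 7 class 3 semaphorins, the secreted ligands of neuropilins and A plexins, passed. Their differences ran from -0.04 for Sema3d to 0.24 for Sema3a and Sema3g. Sema3f, a ligand of Nrp2, had 6.54, 6.50 and 6.51 on the WT arrays against 6.45, 6.87 and 6.60 on the KO arrays. Only KO array 2 stood apart there, and the difference was 0.12 (95% interval -0.13 to 0.38). Sema3b had 5.79, 5.77 and 5.80 on the WT arrays against 5.87, 5.99 and 5.79 on the KO arrays, a difference of 0.10 (95% interval -0.11 to 0.30). Sema3a, the main ligand of Nrp1, had means of 3.82 ± 0.14 and 4.06 ± 0.30 (SD, n = 3 each), and Sema3c differed by 0.06. The class 5 and 6 semaphorins, which span the membrane and act mostly on A and B plexins, differed by -0.02 to 0.23, and none of the 6 passed. Sema6a had no KO array as low as a WT array, with means of 5.02 and 5.19, a difference of 0.17 (95% interval -0.04 to 0.38). Sema5b did not overlap either, with means of 5.51 and 5.72, a difference of 0.20 (95% interval -0.03 to 0.44). Sema5a differed by 0.23, Sema6b by 0.08, Sema6c by -0.02 and Sema6d by 0.07. The pair of Sema6b probe sets held the same values on all arrays and counts as 1 measurement.

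Small positive differences of dim genes were common on these arrays. Of the 31 genes 17 lay below the table's median signal of 5.59, and their median difference was 0.07, beside 0.10 over all 9420 genes below it. The 14 genes above it had a median of 0.08, beside -0.09 over all 10518 genes above it. No background level is known for these arrays, so whether the dim genes of the family are expressed in DP thymocytes at all cannot be read from them.

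**Figure D3:**
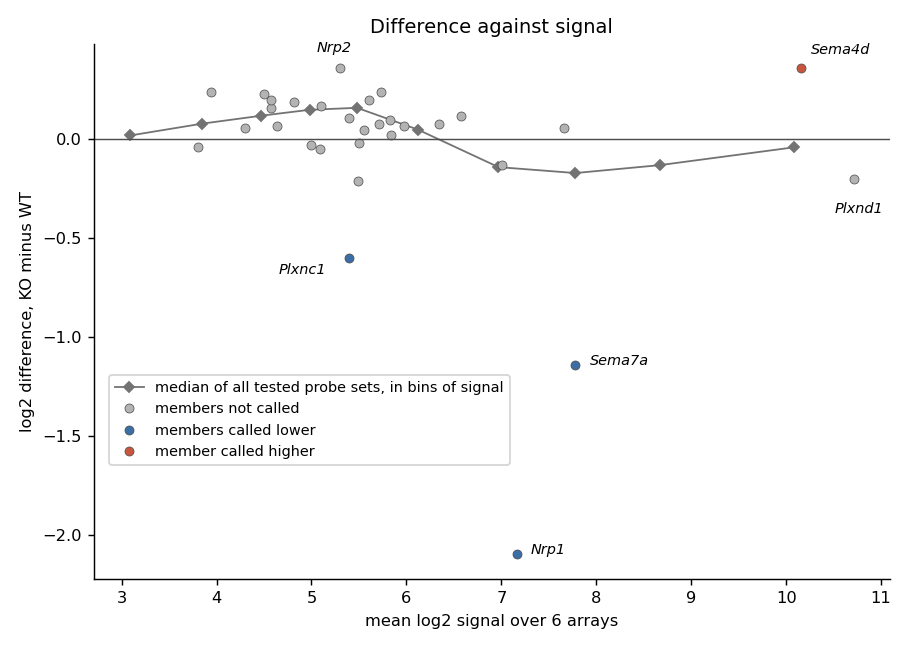
Log2 difference, KO minus WT, against mean log2 signal over 6 arrays for the 31 genes (circles), with the median difference of all tested probe sets in 10 bins of signal (diamonds joined by a line). The line runs from 0.16 near a signal of 5.48 to -0.17 near 7.78; Nrp1, Sema7a and Plxnc1 lie furthest below it, and Sema4d (0.36), Sema4b (0.06) and Sema3f (0.12) lie above it.

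VEGF ligands and receptors, which share the neuropilins, did not pass. Of 8 measured none was called, and the list's median difference was 0.06. Flt1, a VEGF receptor, had 5.47, 5.44 and 5.64 on the WT arrays against 5.67, 6.29 and 6.10 on the KO arrays. It was higher on every KO array, by a little on KO array 1, and its difference of 0.50 (SE 0.15, limma adjusted p = 0.08) did not pass, though it was called without KO array 1. Vegfa, the main ligand, had means of 6.43 and 6.71 (difference 0.28, limma adjusted p = 0.31). Kdr, the receptor that works with Nrp1 in endothelium, had means of 3.97 and 4.11.

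Of 37 measured partners that act inside the cell below plexins and neuropilins, 2 fell, none rose and 35 did not pass. Their median difference was 0.00. Over all genes 4.25% were called lower and 1.84% higher, so nothing is read from these small counts. Mical3, of the actin-oxidising enzymes that plexins recruit, had 7.19, 6.91 and 7.15 on the WT arrays against 6.47, 6.32 and 6.39 on the KO arrays. The groups were well apart, and the fall was 0.69 (SE 0.10, limma adjusted p = 0.0071). A further Mical3 probe set differed by -0.34 and did not pass (limma adjusted p = 0.1). Arhgap35, which encodes a GTPase-activating protein, had 7.84, 7.86 and 7.76 on the WT arrays against 7.48, 7.43 and 7.34 on the KO arrays. The fall was 0.40 (SE 0.09, limma adjusted p = 0.035), but after quantile normalization it was 0.27 and not called. Of the fits with 1 array left out, Arhgap35 was called only in that without WT array 3. All probe sets leaned lower near these signals, with median differences of -0.14 and -0.17 in the bins around 6.97 and 7.78. Of 11 other receptors and binding partners of semaphorins, Itgb1 was the one called, beside 4.25% of all genes called lower.

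Other guidance families were read beside this one. Of 21 ephrins and Eph receptors measured, 1 fell, beside 4.25% of all genes, none rose and 20 did not pass. The list's median difference was 0.13. The gene that fell was Ephb6, an Eph receptor with an inactive kinase that is abundant on T cells. It had 9.50, 9.27 and 9.81 on the WT arrays against 8.40, 8.32 and 8.43 on the KO arrays. The KO arrays lay close together and far below WT, and the fall was 1.14 (SE 0.13, limma adjusted p = 0.0023), which stayed called with any 1 array left out. Of 19 slits, netrins and their receptors none was called, with a median difference of 0.22. Ntn5 and Ntn4, netrins, had the smallest p of that list, with differences of 0.48 and 0.32 (limma adjusted p = 0.061 and 0.11).

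**Figure D4:**
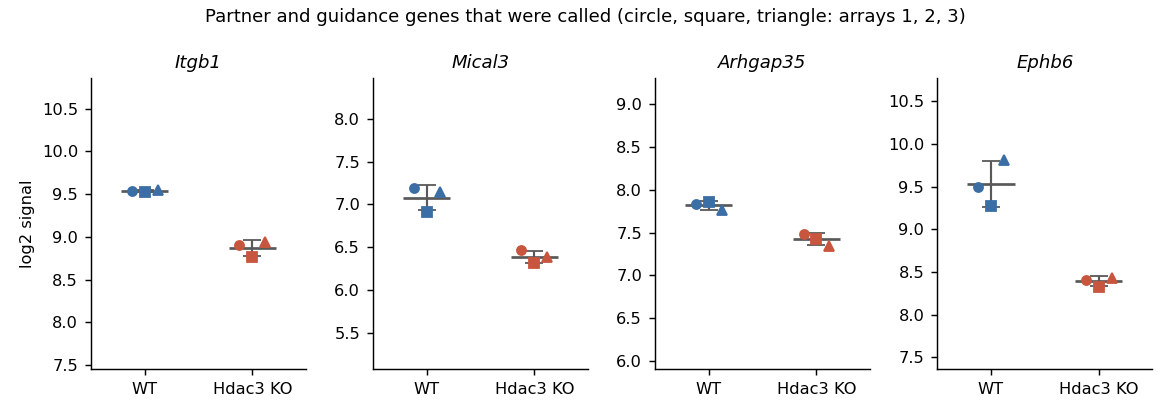
Log2 signal on each WT (blue) and KO (red) array, with mean (line) and SD (bar) of 3 arrays, for the called genes of the partner lists and of the Eph family; every panel spans the same range of log2 units. Itgb1, Mical3, Arhgap35 and Ephb6 are each lower on all 3 KO arrays, by 0.67, 0.69, 0.40 and 1.14.

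Markers of the remaining cell types were read as well. Over all genes 4.25% were called lower and 1.84% higher, so nothing is read from the small counts below. Of 6 thymic epithelial markers Epcam, an adhesion protein, fell by 0.37, and the list mean was 5.11 to 5.32 in WT and 5.25 to 5.31 in KO. None of 5 mesenchymal, 5 B cell or 5 natural killer T cell markers was called, and of 3 erythroid markers Klf1, a red cell factor, rose by 0.44, with list means of 4.67 to 5.02 in WT and 5.05 to 5.28 in KO. Of 5 double-negative markers, Il2ra rose as above and Cd44, an adhesion receptor, fell by 0.66, with list means of 6.13 to 6.42 in WT and 6.60 to 6.74 in KO. The part of these cells in the family's values was not tested.

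**Figure D5:**
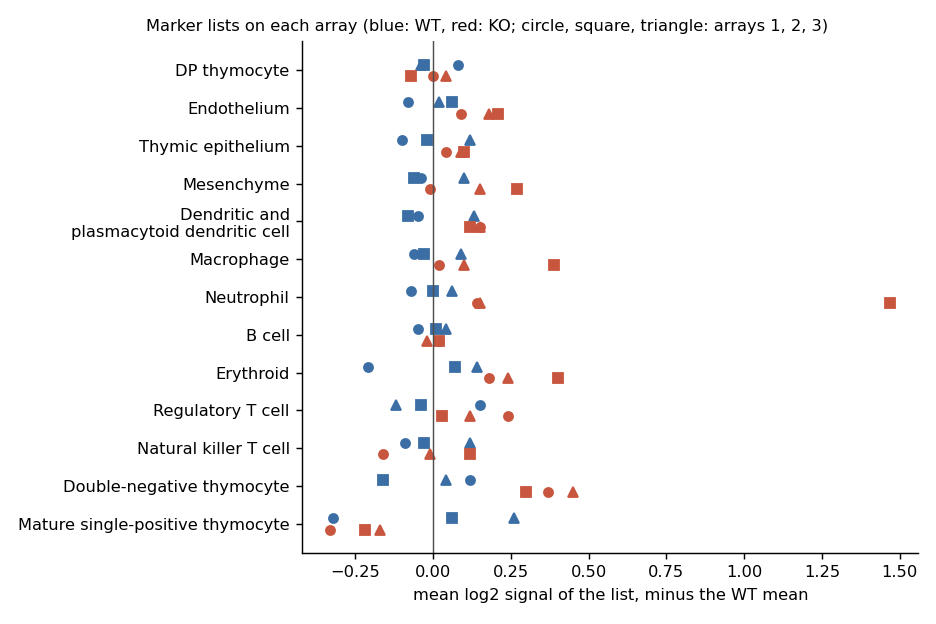
Mean log2 signal of each marker list on each WT (blue) and KO (red) array, minus the mean of the 3 WT arrays. The neutrophil list stands 1.47 above WT on KO array 2, while the DP, endothelial and dendritic lists differ by at most 0.21 from the WT mean on every array.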

How the data were processed

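The authors deposited log2 probe set signals of 28853 probe sets on 6 Affymetrix arrays of biotin-labelled total RNA, 3 per genotype, per the labels. Their summarisation, background correction and scaling are not stated in the sources used here, and the log2 scale was read from the values, which run from 1.94 to 13.98. Gene symbols came from the platform annotation: 21789 probe sets carried 1 symbol, 1621 several and 5443 none. The 23410 with a symbol were fitted as deposited with limma 3.58.1 in R 4.3.3 (2 group means, empirical Bayes, Benjamini-Hochberg adjustment, two-sided, threshold 0.05). Each gene is given by its brightest probe set over all arrays. Exact permutation of 3 against 3 arrays cannot go below p = 0.1 and was not used. Precision is limited by the 6 arrays, with a median SE of 0.11.

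By rule the text names every member, with array values for those called and the 8 others with the highest mean signal, and from each pathway list the called genes (at most 6) or, with none called, the 2 with the smallest p. Outside that rule the array values of Nrp2, the genes Itga1, Cd72 and Kdr, and the single marker genes were picked with their values in view. The members and all lists were chosen with earlier results of these data known. Promoter windows came from a RefSeq table (GRCm38.p6) and were scanned on both strands. The fit was tested on simulated data. Alternatives were quantile normalization, median centring, leaving out dim probe sets, testing all probe sets, a trend with robust prior, weights per array, a replicate block, averaging the probe sets of a gene and leaving out each array. Quantile normalization together with the dim filter, or without KO array 2, was added after seeing the data.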

Additional observations from a re-analysis of the deposited data

How the results depend on the processing

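Sema7a was called lower in all alternatives run but 2 (without WT replicate 1, and quantile normalization without KO replicate 2). The counts below include Nrp1, whose fall was known when the family was chosen, and are no support for it. The count of genes called lower was 3 in the reported fit and 1 to 3 with 1 array left out. It was 1 with quantile normalization and KO replicate 2 left out. The count called higher, 1 in the reported fit, was 0 after median centring, with all probe sets tested, with a gene's probe sets averaged, with quantile normalization and KO replicate 2 left out, and with any 1 array left out. The causes were not tested. With the replicate number as a block 3 genes were called lower and 0 higher, since Sema4d reached a limma adjusted p of 0.072. Same-numbered arrays correlated at 0.25, -0.07 and -0.03 in their deviations from the group means. Differently numbered arrays correlated at -0.34 to 0.32. The numbers were not taken as pairs. These values cannot settle whether arrays were paired, because deviations from a group mean constrain each other.

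Signs turned for genes that were not called. After quantile normalization Plxna4 was at -0.00, Sema3c and Sema6d at -0.03, and Sema4a and Sema4c at -0.06. After median centring Sema3b was at -0.00, Plxnb1 and Sema6b at -0.02, Sema4g and Sema6d at -0.03, Sema3c and Sema4b at -0.04, Sema4c at -0.06 and Sema4a at -0.09. With array weights Sema6c was at 0.07. With quantile normalization and dim probe sets left out Sema4a was at -0.06. With quantile normalization and KO replicate 2 left out Sema3b was at -0.01, Sema6b at -0.04, Sema3c at -0.05, Sema4a and Sema6d at -0.07 and Sema4c at -0.14. With 1 array left out, Plxna2 ranged from -0.08 to 0.01, Plxnb3 from -0.14 to 0.04, Sema3c from -0.02 to 0.11, Sema4a from -0.02 to 0.07, Sema4c from -0.05 to 0.11, Sema4g from -0.13 to 0.29, Sema6b from -0.03 to 0.21, Sema6c from -0.16 to 0.07 and Sema6d from -0.01 to 0.17. Dim genes, Plxnc1 among them, have no value where dim probe sets were left out.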
